A study of Mus musculus with 6 samples.

Results

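Pancreatic acinar cells make the digestive enzymes of the gut, and transcripts of these cells were measured here in spleen. The set of 38 genes was chosen by name: trypsinogens and other secreted digestive enzymes, proteins of the secretory granule, enzyme inhibitors, 1 hormone receptor, proteins of the early secretory pathway, and the transcription factors that define the acinar cell. A gene counted as measured where the platform annotation gave it a probe set with no other symbol, which held for 32 of the 38 genes, with 56 of the 45037 probe sets tested. Of the other 6, Prss1, Try4, Try5 and Amy2a5 were listed only on probe sets with several symbols and were not used, and Pnlip and Try10 had no probe set listed. In this array design a probe set is a group of short probes for 1 transcript, and 13 of the 32 genes had more than 1 probe set.

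The 6 arrays hold spleen RNA of adult F1 females with FVB/NJ as a common parent. In 3 of them the other parent was AKR/J, giving (AKR/J x FVB/NJ)F1 animals, and in 3 it was DBA/2J, giving (DBA/2J x FVB/NJ)F1 animals. They are called the AKR/J cross and the DBA/2J cross below. The labels name no treatment beyond Avertin anaesthesia at collection, and no age beyond adult is stated in the labels. F1 mice are heterozygous wherever their parents differ, so neither cross shows a parental strain by itself.

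As background, an acinar cell synthesises its proteases as inactive precursors, stores them in zymogen granules and releases them into the pancreatic duct when the gut hormone cholecystokinin signals a meal. Enzyme genes are switched on by the PTF1 complex, which holds Ptf1a, an E protein and Rbpjl, and the cell's large secretory apparatus is driven by Bhlha15. Most of these genes are known chiefly from the pancreas, whose tail lies against the hilum of the spleen. Bhlha15 is also made by plasma cells, which the spleen holds, and Klk1, Nr5a2 and Gata4 by several other organs.

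Values are log2 signals as deposited. Array medians were 5.05 to 5.08 on the AKR/J arrays and 5.09 to 5.10 on the DBA/2J arrays, and the 99th percentile of all probe sets was 11.3 on each of the 6 arrays. For a sense of background, 9 probe sets of the Y-linked genes Eif2s3y, Kdm5d and Uty, which females lack, stood between 2.06 and 2.76 on the AKR/J arrays and between 2.00 and 3.07 on the DBA/2J arrays. Spleen identity was checked on markers. The B cell gene Cd79a averaged 12.03 ± 0.05 on the AKR/J arrays and 11.67 ± 0.11 on the DBA/2J arrays (SD, n = 3 each), and the spleen transcription factor Tlx1 stood at 7.56 to 7.80 on the AKR/J arrays and 7.56 to 7.60 on the DBA/2J arrays. DBA/2J replicate 3 stood apart from the other 5 arrays in the acinar genes, so the differences of acinar probe sets are given with and without it. The labels number the samples of a cross without saying that they are separate animals, so p-values measure the spread between these samples, which may be technical. A lower signal in whole tissue can come from fewer cells of a type or from less RNA per cell, which cannot be told apart here.

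The digestive enzymes were among the brightest transcripts on 5 of the 6 arrays. Of 17 measured enzymes, the lipase cofactor included, 15 stood above the 99th percentile on each AKR/J array, 13 on DBA/2J replicate 1, 15 on replicate 2 and 0 on replicate 3. The median over the 17 was 13.71, 13.70 and 13.77 on the AKR/J arrays, and 12.98, 13.49 and 5.72 on the DBA/2J arrays. All 17 had the same order: the 3 AKR/J arrays on top, then DBA/2J replicate 2, then replicate 1 and last replicate 3. DBA/2J replicate 3 was the lowest array in 30 of the 32 acinar genes, against 16.1% of all genes, and AKR/J replicate 3 the highest in 26, against 19.3%. The full order was found in 28 of the 32 acinar genes (87.5%), and in 2.74% of all 18193 genes measured.

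**Figure D1:**
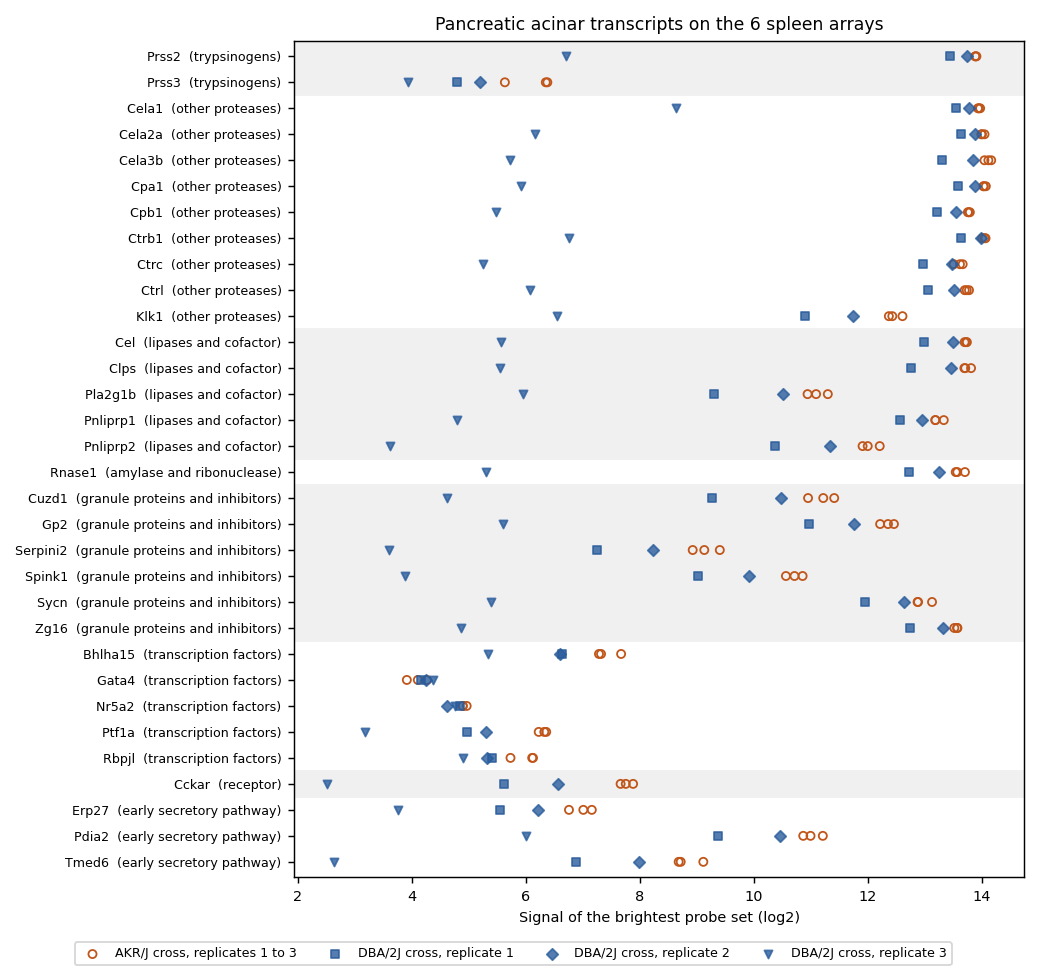
Signal (log2) of the brightest probe set of each of the 32 measured genes on each array, with open circles for the 3 AKR/J arrays and filled symbols for the 3 DBA/2J arrays. Most enzymes lie near 13 to 14 on 5 arrays, and the 17 lie between 3.63 and 8.64 on DBA/2J replicate 3, whereas Gata4 and Nr5a2 lie close together on all 6.

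Trypsinogens are the precursors of trypsin, which activates the other pancreatic proteases. Prss2 stood at 13.89, 13.89 and 13.90 on the AKR/J arrays, and at 13.43, 13.74 and 6.70 on the DBA/2J arrays. The groups did not overlap, but the DBA/2J arrays lay about 7 log2 units apart. The difference, AKR/J cross minus DBA/2J cross, was 2.60 ± 1.59 (SE) and did not pass (adjusted p = 0.300 in limma over all probe sets). It was 0.31 ± 0.11 without DBA/2J replicate 3 (adjusted p = 0.152). Its other 3 probe sets had differences of 2.65 to 2.84, and their names carry the suffix for probes that can bind related transcripts, so the near-identical trypsinogens may share this signal.

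Prss3, a further trypsinogen, was the one enzyme past the threshold. It had 5.63, 6.38 and 6.35 on the AKR/J arrays, and 4.79, 5.20 and 3.94 on the DBA/2J arrays. Every AKR/J value lay above every DBA/2J value, and the difference was 1.48 ± 0.32 (adjusted p = 0.0292 in limma). Leaving out single arrays ended that call for AKR/J replicate 2 (adjusted p = 0.0797), AKR/J replicate 3 (0.0870) and DBA/2J replicate 3 (0.0532, difference 1.13), and a trended robust variance model gave 0.0511.

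Chymotrypsins, elastases and carboxypeptidases cut dietary protein once trypsin has activated them. Cela2a, a pancreatic elastase, stood at 13.99 to 14.05 on the 3 AKR/J arrays, and at 13.64, 13.88 and 6.16 on the DBA/2J arrays. Chymotrypsinogen B, Ctrb1, had 14.01, 14.05 and 14.06 on the AKR/J arrays, and 13.64, 13.99 and 6.76 on the DBA/2J arrays. For Cpa1, which encodes carboxypeptidase A1, the values were 14.03, 14.03 and 14.07 on the AKR/J arrays, and 13.58, 13.88 and 5.92 on the DBA/2J arrays. In these 3 genes 5 arrays lay within 0.5 of one another, and DBA/2J replicate 3 lay 7.86, 7.28 and 8.12 below the AKR/J mean. Their differences between crosses, 2.79 ± 1.76, 2.57 ± 1.63 and 2.92 ± 1.81, did not pass (adjusted p = 0.314, 0.316 and 0.305 in limma). Nearly all of their size came with DBA/2J replicate 3: without it they were 0.25 ± 0.11, 0.22 ± 0.12 and 0.31 ± 0.11 (adjusted p = 0.190, 0.289 and 0.143).

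The elastase Cela3b, chymotrypsin-like Ctrl, the chymotrypsin Ctrc and carboxypeptidase B1, Cpb1, had differences of 2.85 to 3.15 and did not pass (adjusted p of 0.274 to 0.298 in limma). Their differences were 0.53, 0.45, 0.37 and 0.40 without DBA/2J replicate 3 (adjusted p of 0.0981 to 0.184). Cela1, a further elastase, had 13.95, 13.93 and 13.97 on the AKR/J arrays, and 13.55, 13.78 and 8.64 on the DBA/2J arrays. Its gap between the AKR/J mean and DBA/2J replicate 3, 5.31, was the smallest among the 9 genes of this group. The difference between crosses was 1.96 ± 1.17 (adjusted p = 0.288 in limma), and 0.28 ± 0.10 without that array (adjusted p = 0.148). Tissue kallikrein, Klk1, a serine protease also made by salivary gland and kidney, had 12.37, 12.43 and 12.61 on the AKR/J arrays, and 10.90, 11.75 and 6.55 on the DBA/2J arrays. The crosses were further apart here than in the brighter proteases when replicate 3 was left aside. Klk1 did not pass with all arrays (2.74 ± 1.12, adjusted p = 0.142 in limma) and did without DBA/2J replicate 3 (1.15 ± 0.23, adjusted p = 0.0458). Its probe sets disagreed: one that may bind other sequences stayed between 8.57 and 8.62 on the AKR/J arrays and between 8.55 and 8.93 on the DBA/2J arrays.

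The fat-digesting enzymes had the same order of arrays. Pnliprp1, a protein related to pancreatic lipase, stood at 13.19, 13.18 and 13.33 on the AKR/J arrays, and at 12.56, 12.95 and 4.79 on the DBA/2J arrays. The crosses did not overlap, and the difference was 3.13 ± 1.84 (adjusted p = 0.283 in limma), or 0.48 ± 0.13 without DBA/2J replicate 3 (adjusted p = 0.0907). Pnliprp2, a related lipase that also acts on galactolipids, had 11.91 to 12.21 on the 3 AKR/J arrays, and 10.37, 11.34 and 3.63 on the DBA/2J arrays. With 3.59 ± 1.69 it had the largest difference of the 32 genes at their brightest probe sets, and it did not pass (adjusted p = 0.189 in limma). Without replicate 3 its difference was 1.18 ± 0.25 (adjusted p = 0.0561).

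Bile salt-activated lipase, Cel, stood at 13.70, 13.72 and 13.74 on the AKR/J arrays, and at 12.98, 13.49 and 5.57 on the DBA/2J arrays. Colipase, Clps, the cofactor that anchors lipase to fat droplets, had 13.71, 13.69 and 13.81 on the AKR/J arrays, and 12.76, 13.46 and 5.55 on the DBA/2J arrays. Pla2g1b, the pancreatic phospholipase, stood at 10.94, 11.09 and 11.30 on the AKR/J arrays, and at 9.30, 10.52 and 5.95 on the DBA/2J arrays. In each of them DBA/2J replicate 1 lay below replicate 2, and both lay below the AKR/J arrays. The differences were 3.04 ± 1.78, 3.15 ± 1.75 and 2.52 ± 0.95, and none of the 3 passed (adjusted p = 0.280, 0.259 and 0.118 in limma). With DBA/2J replicate 3 left out they were 0.48 ± 0.15, 0.63 ± 0.19 and 1.20 ± 0.31 (adjusted p = 0.106, 0.101 and 0.0773). Of the 4 probe sets of Pla2g1b, 2 stood below 3 on all 6 arrays and carried no such pattern. The pancreatic ribonuclease Rnase1 had 13.54, 13.57 and 13.70 on the AKR/J arrays, and 12.72, 13.25 and 5.29 on the DBA/2J arrays (3.18 ± 1.78, adjusted p = 0.261 in limma). Its difference was 0.62 ± 0.16 without DBA/2J replicate 3 (adjusted p = 0.0773).

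Granule proteins and inhibitors followed the enzymes. Of 6 genes 0 passed in limma with all arrays, where 8.91% of all genes were called higher in the AKR/J cross. An unadjusted p under 0.05 was found in 3 of them, against 18.4% of all genes in that direction. In each of the 6 the AKR/J arrays lay above the DBA/2J arrays, as in 22% of all genes. Zg16, a lectin of the zymogen granule, stood at 13.56, 13.52 and 13.57 on the AKR/J arrays, and at 12.73, 13.32 and 4.87 on the DBA/2J arrays. Sycn, which encodes syncollin of the granule membrane, had 12.88, 12.87 and 13.13 on the AKR/J arrays, and 11.96, 12.64 and 5.40 on the DBA/2J arrays. Zg16 had the widest span over the 6 arrays among the 32 brightest probe sets, 8.71. The differences of Zg16 and Sycn were 3.24 ± 1.89 and 2.96 ± 1.60 (adjusted p = 0.279 and 0.247 in limma), and 0.52 ± 0.16 and 0.66 ± 0.19 without DBA/2J replicate 3 (adjusted p = 0.111 and 0.0981). The granule membrane glycoprotein Gp2 and the CUB and zona pellucida domain protein Cuzd1 had differences of 2.90 ± 1.34 and 3.07 ± 1.24 (adjusted p = 0.184 and 0.139 in limma). Without that array they were 0.98 ± 0.21 and 1.32 ± 0.32 (adjusted p = 0.0567 and 0.0686).

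The trypsin inhibitor Spink1, which guards the acinar cell against premature protease activity, stood at 10.56, 10.71 and 10.86 on the AKR/J arrays, and at 9.02, 9.91 and 3.87 on the DBA/2J arrays. Serpini2, a serine protease inhibitor of the pancreas, had 8.93, 9.13 and 9.40 on the AKR/J arrays, and 7.26, 8.23 and 3.60 on the DBA/2J arrays. In both genes every DBA/2J array lay below every AKR/J array, and replicate 3 lay far below the other two. With all arrays neither passed (adjusted p = 0.150 and 0.101 in limma), and without DBA/2J replicate 3 both did, at 1.25 ± 0.24 (adjusted p = 0.0421) and 1.41 ± 0.27 (adjusted p = 0.0426).

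Cckar, the cholecystokinin receptor that triggers enzyme release, separated the 5 brighter arrays most. It stood at 7.66, 7.75 and 7.88 on the AKR/J arrays, and at 5.61, 6.56 and 2.52 on the DBA/2J arrays. The lowest value lay within the range of the Y-linked probe sets. The difference was 2.87 ± 0.85 with all arrays (adjusted p = 0.0651 in limma) and 1.68 ± 0.24 without DBA/2J replicate 3 (adjusted p = 0.0197), the largest of the 32 genes in that fit.

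In the early secretory pathway, Tmed6, a cargo receptor family member, had 8.72, 8.68 and 9.11 on the AKR/J arrays, and 6.89, 7.98 and 2.64 on the DBA/2J arrays. Erp27, a redox-inactive relative of protein disulfide isomerase, stood at 6.76, 7.01 and 7.16 on the AKR/J arrays, and at 5.55, 6.21 and 3.76 on the DBA/2J arrays. Pdia2, the pancreatic protein disulfide isomerase that folds secreted proteins, had 10.87, 10.99 and 11.21 on the AKR/J arrays, and 9.37 and 10.47 on DBA/2J replicates 1 and 2, with replicate 3 at 5.02 below the AKR/J mean. The 3 genes shared the order of arrays seen in the enzymes. With all arrays their differences, 3.003 ± 1.14, 1.801 ± 0.52 and 2.41 ± 0.94, did not pass (adjusted p = 0.119, 0.0612 and 0.126 in limma). Without DBA/2J replicate 3 Erp27 passed (1.09 ± 0.20, adjusted p = 0.0392), and Tmed6 (1.40 ± 0.29, 0.0526) and Pdia2 (1.10 ± 0.28, 0.0771) did not. The dimmer Erp27 probe set carried no such pattern, at 2.70 to 2.89 on the AKR/J arrays and 2.74 to 3.05 on the DBA/2J arrays.

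The transcription factors were dimmer and spanned far less of the scale. Ptf1a, the subunit of PTF1 restricted to pancreas and some neurons, stood at 6.36, 6.23 and 6.33 on the AKR/J arrays, and at 4.98, 5.31 and 3.18 on the DBA/2J arrays. It had the enzymes' order of arrays. It rose by 1.81 ± 0.46 in the AKR/J cross over the DBA/2J cross (adjusted p = 0.0455 in limma), with group means of 6.30 ± 0.07 and 4.49 ± 1.14 (SD, n = 3 each). Without DBA/2J replicate 3 the difference was 1.16 ± 0.12 (adjusted p = 0.00711), the smallest adjusted p of any acinar probe set in that fit. Leaving out AKR/J replicate 1, 2 or 3 ended the call (adjusted p = 0.121, 0.0979 and 0.109), as did leaving out DBA/2J replicate 2 (0.0523). Quantile normalization (0.0563) and a trended robust variance model (0.124) ended it too.

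Bhlha15, also known as Mist1, had 7.28, 7.32 and 7.67 on the AKR/J arrays, and 6.63, 6.60 and 5.34 on the DBA/2J arrays at its brighter probe set. All AKR/J values lay above the DBA/2J values, and DBA/2J replicates 1 and 2 were nearly equal. The difference was 1.23 ± 0.32 (adjusted p = 0.0455 in limma), and 0.81 ± 0.13 without DBA/2J replicate 3 (adjusted p = 0.0291). Leaving out AKR/J replicate 1, 2 or 3 gave an adjusted p of 0.105, 0.0936 and 0.121, and leaving out DBA/2J replicate 2 gave 0.0713. The call also ended after quantile normalization (0.0702), with a trended robust variance model (0.0898) and with the replicate number as a block (0.0525). At the dimmer Bhlha15 probe set the crosses overlapped (0.25 ± 0.21, adjusted p = 0.457).

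Rbpjl, the acinar subunit of PTF1, gave opposite calls at its 2 probe sets. The brighter one had 5.73, 6.13 and 6.11 on the AKR/J arrays, and 5.41, 5.32 and 4.89 on the DBA/2J arrays, a difference of 0.78 ± 0.16 (adjusted p = 0.0246 in limma). The dimmer one had 4.45, 4.49 and 4.57 on the AKR/J arrays, and 5.03, 4.87 and 5.14 on the DBA/2J arrays, a difference of -0.51 ± 0.09 (adjusted p = 0.0183). So no single direction can be given for this gene. Neither call held in every fit with 1 array left out. At the brighter one it ended on leaving out AKR/J replicate 2 (adjusted p = 0.0725), AKR/J replicate 3 (0.0780), DBA/2J replicate 2 (0.0637) or DBA/2J replicate 3 (0.0589). At the dimmer one it ended on leaving out AKR/J replicate 1 (0.0667), 2 (0.0567) or 3 (0.0506), or DBA/2J replicate 3 (0.0595).

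Nr5a2, a nuclear receptor of acinar cells and liver, had 4 probe sets. The brightest stood at 4.90, 4.96 and 4.89 on the AKR/J arrays, and at 4.85, 4.62 and 4.76 on the DBA/2J arrays (0.18 ± 0.09, adjusted p = 0.207 in limma). Another had 4.90, 5.06 and 5.37 on the AKR/J arrays, and 3.93, 4.48 and 3.17 on the DBA/2J arrays, the enzymes' order, and passed at 1.25 ± 0.29 (adjusted p = 0.0354). That call ended on leaving out AKR/J replicate 1, 2 or 3 (adjusted p = 0.0810, 0.0802 and 0.101), or DBA/2J replicate 1 or 3 (0.0552 and 0.0537), and with a trended robust variance model (0.0527). The other 2 lay at 2.84 to 4.01 on the AKR/J arrays and 2.96 to 3.68 on the DBA/2J arrays.

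Gata4, which acts in early pancreas and in stomach, heart and gonads, had 3.92, 4.11 and 4.27 on the AKR/J arrays, and 4.17, 4.25 and 4.37 on the DBA/2J arrays. It was the one gene of the 32 whose crosses overlapped at the brightest probe set (-0.17 ± 0.11, adjusted p = 0.334 in limma). Its values lay near the 40th percentile of each array, which ran from 4.27 to 4.38.

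The promoters of 4 enzyme genes are shown because they hold both sequences that PTF1 is known to recognise, an E box (CACCTG) and a TC box (TTTCCC). Sequences are RefSeq's on GRCm38.p6, the 250 bases before the annotated start, written 5′ to 3′ on the gene's strand, with either motif in capitals on either strand. Cela1 lies at chr15:100687921-100688170 on the minus strand, Prss2 at chr6:41521526-41521775 on the plus strand, Cela2a at chr4:141826006-141826255 on the minus strand and Cel at chr2:28563404-28563653 on the minus strand.
Cela1: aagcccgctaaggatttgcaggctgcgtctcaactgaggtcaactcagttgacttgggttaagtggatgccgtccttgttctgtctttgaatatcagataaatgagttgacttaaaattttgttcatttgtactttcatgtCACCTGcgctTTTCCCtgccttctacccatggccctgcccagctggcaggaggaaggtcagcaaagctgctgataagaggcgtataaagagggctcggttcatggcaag
Prss2: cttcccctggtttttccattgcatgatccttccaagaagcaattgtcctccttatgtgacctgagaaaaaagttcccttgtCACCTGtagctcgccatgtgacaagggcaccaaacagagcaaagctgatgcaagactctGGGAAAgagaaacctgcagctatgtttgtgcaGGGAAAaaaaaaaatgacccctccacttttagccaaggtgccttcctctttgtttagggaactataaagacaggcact
Cela2a: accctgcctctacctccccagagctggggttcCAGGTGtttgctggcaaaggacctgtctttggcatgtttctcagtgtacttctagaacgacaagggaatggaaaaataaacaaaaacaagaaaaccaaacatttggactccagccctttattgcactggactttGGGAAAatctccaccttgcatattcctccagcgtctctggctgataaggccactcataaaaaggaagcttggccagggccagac
Cel: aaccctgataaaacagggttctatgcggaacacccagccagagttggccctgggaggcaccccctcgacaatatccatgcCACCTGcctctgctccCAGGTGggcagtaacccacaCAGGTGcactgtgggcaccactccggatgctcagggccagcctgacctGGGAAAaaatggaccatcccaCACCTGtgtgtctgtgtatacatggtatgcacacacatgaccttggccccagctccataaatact
Such windows were found for 25 of the 32 measured genes, 26 windows in all. CACCTG was present in 10 of 15 enzyme windows (66.7%), in 3 of 5 transcription factor windows (60%) and in 17.2% of all 32851 windows. TTTCCC was present in 6 of 15 enzyme windows (40%), in 0 of 5 transcription factor windows and in 21.9% of all windows. Both stood in 4 of 15 enzyme windows (26.7%), against 3.61% of all windows, and the motifs overlapped in 0 member windows. CACCTG followed after exactly 4 bases by TTTCCC was found at Cela1, 1 of the 26 windows, and in 0.0122% of all windows, and spacings of 5 and 6 bases were found in 0 of the 26. These are matches of letters, and binding was not measured.

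Set side by side, enzymes and transcription factors differed in how far the arrays lay apart. The mean of the AKR/J arrays exceeded DBA/2J replicate 3 by a median of 8.12 (2.19 to 8.44) in the 17 enzymes and by a median of 1.10 (-0.27 to 3.12) in the 5 transcription factors. It exceeded replicate 1 by medians of 0.68 and 0.58, and replicate 2 by medians of 0.23 and 0.67. At all 3 replicates the median of the factors was the value of Rbpjl at its brighter probe set. At its dimmer probe set the same distances were -0.53, -0.37 and -0.63 for replicates 1, 2 and 3. With a gene's probe sets averaged, the medians of the factors were 0.34, 0.22 and 0.59 for replicates 1, 2 and 3, and at replicate 2 they no longer exceeded that of the enzymes, which was 0.23. The gap between enzymes and factors was thus widest at replicate 3. The SD over the 3 DBA/2J arrays ran from 0.65 to 4.61 in the enzymes and from 0.10 to 1.14 in the transcription factors, and over the AKR/J arrays from 0.01 to 0.42 and from 0.04 to 0.22. The AKR/J levels of the factors, 4.10 to 7.43, left less room above the Y-linked background than those of the enzymes, 6.12 to 14.11, and what part this had was not tested. Whether the difference between the crosses was itself unlike in enzymes and factors was not tested.

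**Figure D2:**
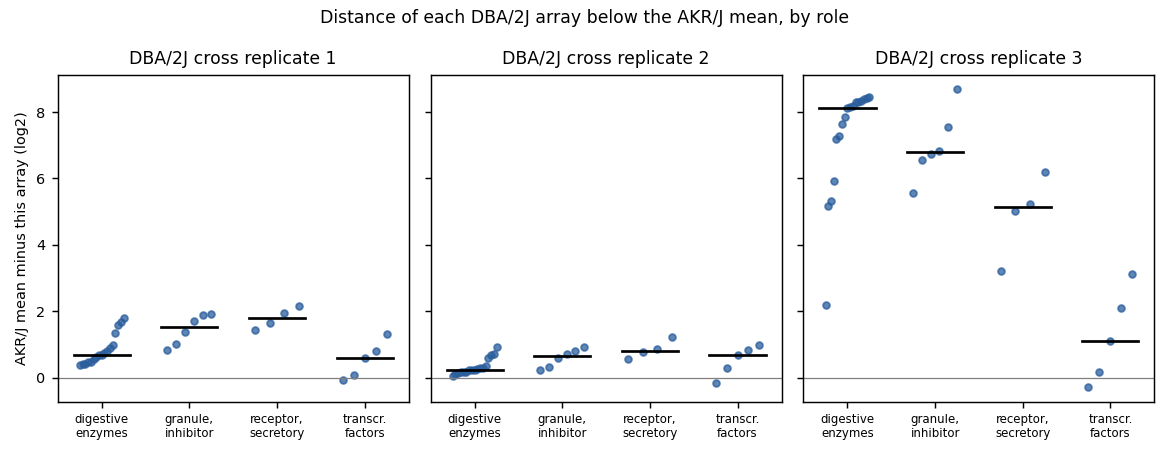
Mean of the 3 AKR/J arrays minus each DBA/2J array (log2), 1 panel per DBA/2J array, with a point for each gene at its brightest probe set and a line at the median. On replicate 3 the enzymes centre on 8.12 and the transcription factors on 1.10, while on replicates 1 and 2 all roles lie below 2.2. In each panel the line of the transcription factors lies at Rbpjl.

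Between the crosses, the 3 AKR/J arrays all lay above the 3 DBA/2J arrays in 31 of the 32 genes, where 22% of all genes did. Over probe sets this held for 46 of 56, against 17.7% of all, and the reverse for 1, against 18.3%. The median difference was 2.86 over the 32 genes and -0.01 over all 18193 genes. With 1 probe set per gene and adjustment over genes, 4 of the 32 passed in limma (12.5%), each higher in the AKR/J cross, where 8.91% of all genes were called higher in that cross and 8.31% lower. They were Prss3, Ptf1a, Bhlha15 and Rbpjl, with 13 genes at an unadjusted p under 0.05, all higher in the AKR/J cross, where 18.4% of all genes were. The Rbpjl call is that of its brighter probe set, and its dimmer one was called in the other direction. With a gene's probe sets averaged, 2 acinar genes passed. Over probe sets, 5 of 56 were called higher in the AKR/J cross, where 5.14% of all probe sets were, and 1 was called higher in the DBA/2J cross, where 5.26% were. Those shares lie near the background.

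Without DBA/2J replicate 3, 12 of the 32 genes passed (37.5%), each higher in the AKR/J cross, where 2.94% of all genes were called higher and 3.05% lower in that fit. Over probe sets 8 of 56 passed, all higher in the AKR/J cross, against 1.44% of all probe sets higher and 1.34% lower. The median difference of the 32 genes was then 0.63, between -0.11 for Gata4 and 1.68 for Cckar. Leaving out AKR/J replicates 1, 2 and 3 in turn left 2, 0 and 0 acinar genes past the threshold, and leaving out DBA/2J replicates 1, 2 and 3 left 4, 4 and 12. The calls over all 45037 probe sets, in either direction, changed as well. They numbered 4688 with all arrays, and 1001, 1513 and 1164 without AKR/J replicates 1, 2 and 3. Without DBA/2J replicates 1, 2 and 3 they numbered 4793, 1148 and 1253.

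**Figure D3:**
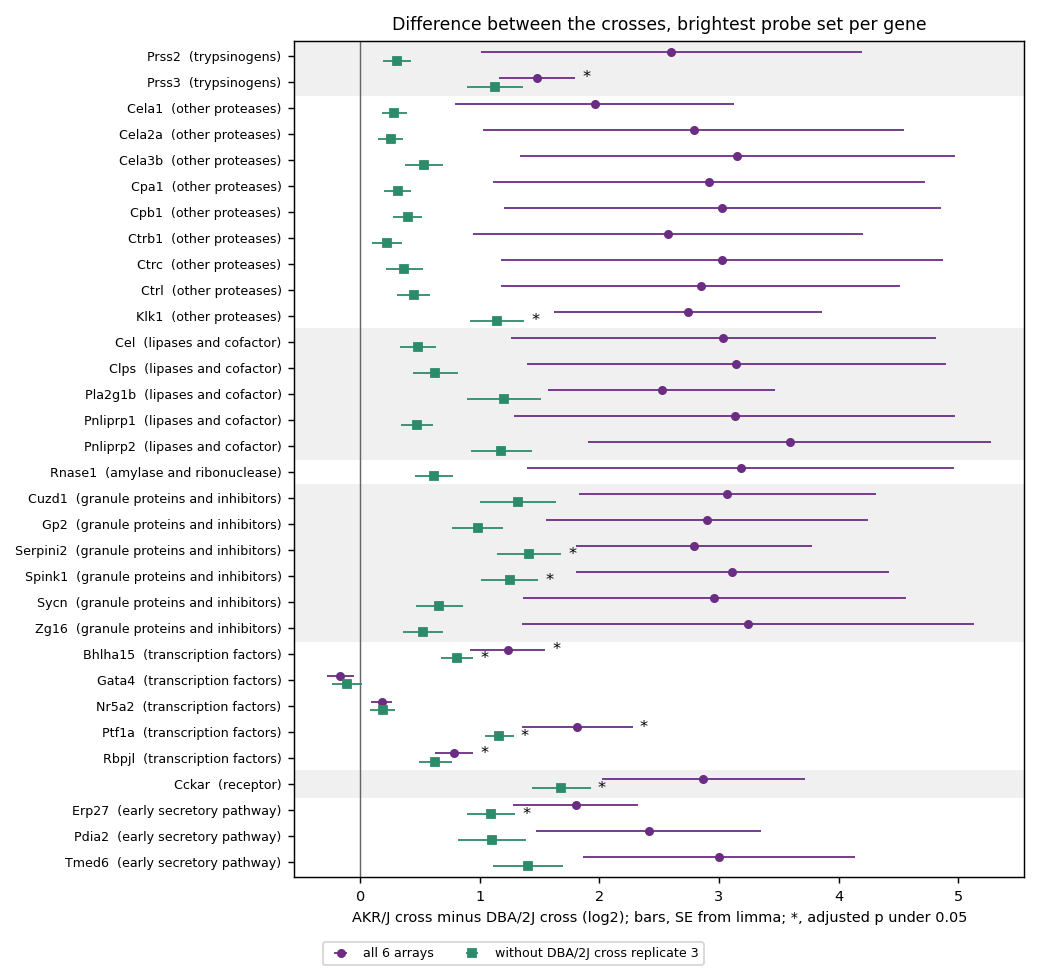
AKR/J cross minus DBA/2J cross (log2) for the brightest probe set of each gene, with SE from limma as bars, circles for all 6 arrays and squares without DBA/2J replicate 3. Stars mark an adjusted p under 0.05. Leaving that array out shrinks the difference and its bar in most genes, and 7 of the 32 then carry a star.

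How far DBA/2J replicates 1 and 2 lay below the AKR/J arrays varied with the brightness of the probe set. In the 13 genes brightest in the AKR/J cross, Cel and Zg16 among them, the median distance was 0.62 for replicate 1 and 0.22 for replicate 2. In the 5 genes next in brightness (Gp2, Klk1, Pnliprp1, Pnliprp2 and Sycn) it was 1.38 and 0.58. In the 5 genes between 9 and 12 (Cuzd1, Pdia2, Pla2g1b, Serpini2 and Spink1) it was 1.81 and 0.71. In the 6 genes between 6 and 9 it was 1.38 and 0.89, and in the 3 dimmest 0.07 and 0.30. The median distances were thus small at both ends of the scale. The 3 dimmest genes (Gata4, Nr5a2 and Rbpjl) are all transcription factors, so brightness and role cannot be told apart there. Among them Rbpjl lay at 0.58 and 0.67. Another Nr5a2 probe set, with an AKR/J mean of 5.11, lay at 1.18 and 0.63, so the low end depends on the probe set taken. Without DBA/2J replicate 3, 2.94% of all genes were called higher in the AKR/J cross in limma over genes. In that fit 0 of the 13 brightest genes passed, 3 of the next 5 and 2 of the 5 between 9 and 12. Of the 6 between 6 and 9 all 6 passed, and of the 3 dimmest 1 did. Over probe sets 4 of the 6 between 6 and 9 passed. The call of Prss3 and Tmed6 depended on the adjustment (0.0420 and 0.0418 over genes, 0.0532 and 0.0526 over probe sets). Gp2, Pnliprp2 and Rbpjl likewise passed over genes and not over probe sets. Replicate 2 lay above replicate 1 in 29 of the 32 genes, by a median of 0.52, so the DBA/2J arrays differed among themselves also apart from replicate 3. The highest signal of any probe set was 14.37 to 14.44 on the AKR/J arrays and 14.51 to 14.56 on the DBA/2J arrays, close above the brightest enzymes, and its part in the small distances there was not tested.

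**Figure D4:**
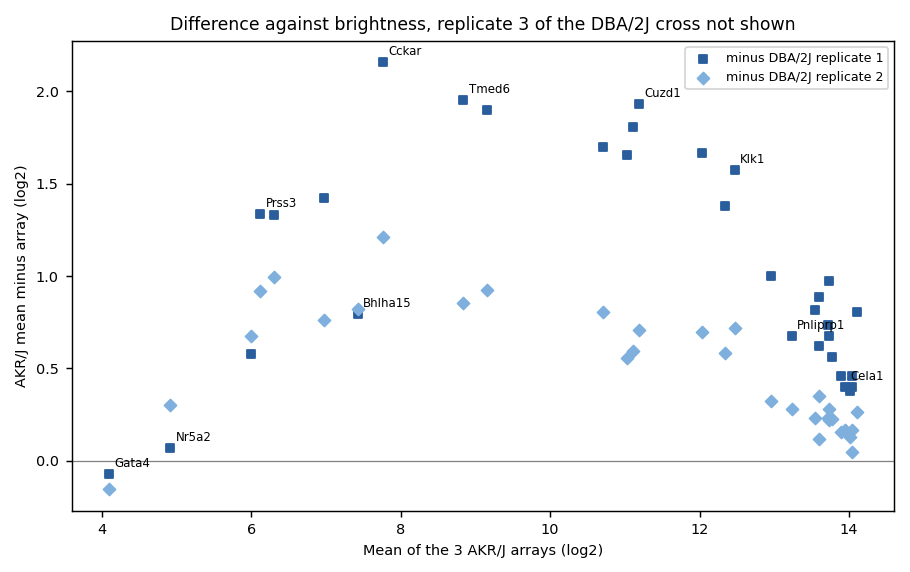
Mean of the AKR/J arrays minus replicate 1 (squares) or replicate 2 (diamonds) of the DBA/2J cross (log2), against the AKR/J mean of the same probe set (log2), for the 32 genes. Distances peak at 2.16 for Cckar and shrink toward 14 on the horizontal axis and toward Gata4 at its low end.

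Markers of other cell types were compared as lists. A second list of 29 genes with roles in acinar cells, their secretory pathway or pancreas had 25 measured genes, of which 7 passed with the AKR/J cross on top (28%), against 8.91% of all genes. Its mean signal was 7.70 to 7.85 on the AKR/J arrays and 7.18, 7.40 and 5.98 on the DBA/2J arrays. The 4 with the smallest adjusted p were Gatm of creatine synthesis (0.91 ± 0.13, adjusted p = 0.0086), Sel1l of protein degradation at the endoplasmic reticulum (0.74 ± 0.13, 0.0137), the pancreatic aquaporin Aqp12 (0.95 ± 0.18, 0.0164) and the membrane fusion protein Stx3 (0.40 ± 0.08, 0.0212; limma, over genes). Of the 25, 9 passed without DBA/2J replicate 3 with the AKR/J cross on top (36%), against 2.94% of all genes. Stx3 did not pass in that fit (adjusted p = 0.0523).

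Of 9 pancreatic duct genes, Muc1, an epithelial mucin, and Epcam, an epithelial adhesion molecule, passed with higher signal on the AKR/J arrays, and the tetraspanin Tspan8 with lower signal. These are 22.2% of the 9 higher and 11.1% lower, against 8.91% and 8.31% of all genes. Muc1 had 6.57, 6.55 and 6.90 on the AKR/J arrays, and 5.70, 6.02 and 4.48 on the DBA/2J arrays (1.27 ± 0.35, adjusted p = 0.0424 in limma over genes), and 0.81 ± 0.14 without DBA/2J replicate 3 (adjusted p = 0.0308). Of the 9, Cftr and Sox9 lay below the 40th percentile on all 6 arrays. Krt19, Krt7, Onecut1 and Cldn4 lay at 4.14 to 5.02 on the AKR/J arrays and 4.06 to 5.17 on the DBA/2J arrays, with 0 of the 4 past the threshold (limma) and 0 at an unadjusted p under 0.05. What part duct cells had in the Muc1 difference was not tested. The duct list averaged 4.57 to 4.68 on the AKR/J arrays and 4.53 to 4.73 on the DBA/2J arrays. Epcam differed by 0.66 ± 0.08 and Tspan8 by -1.94 ± 0.24, without the enzymes' order of arrays.

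Among 15 islet genes, 10 lay below the 40th percentile on all arrays, among them glucagon, Gcg, and the islet amyloid gene Iapp. Insulin, Ins2, stood at 6.94, 7.42 and 6.65 on the AKR/J arrays, and at 6.59, 6.81 and 5.03 on the DBA/2J arrays (0.86 ± 0.43, adjusted p = 0.185 in limma over genes). DBA/2J replicate 3 was thus lowest for insulin too. It was lowest in 2 of the 15 islet genes, a share near the 16.1% of all genes. In 0 of the 15 did the AKR/J arrays all lie above the DBA/2J arrays, against 22% of all genes. Of the 15, 0 passed with higher signal in the AKR/J cross and 2 with lower (13.3%), against 8.91% and 8.31% of all genes. The gut and islet peptide Pyy averaged 3.03 on the AKR/J arrays and 3.37 on the DBA/2J arrays (-0.34 ± 0.08, adjusted p = 0.0321), and the beta cell factor Nkx6-1 4.13 and 4.50 (-0.37 ± 0.09, 0.0331). Neither passed without DBA/2J replicate 3 (adjusted p = 0.0782 and 0.0575). The islet list averaged 3.74 to 3.81 on the AKR/J arrays and 3.72 to 3.87 on the DBA/2J arrays.

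The lists for intestine, liver and salivary gland, other tissues that make some of these proteins or lie nearby, stayed at low signal. They averaged 3.54 to 3.61, 3.75 to 3.90 and 2.55 to 2.64 on the AKR/J arrays, and 3.66 to 3.68, 3.97 to 4.05 and 2.63 to 2.70 on the DBA/2J arrays. Below the 40th percentile on all arrays were 6 of 8 intestinal genes, 3 of 5 liver genes and 5 of 5 salivary genes. In these lists 0 genes passed with the AKR/J cross higher in limma over genes. With that cross lower, 1 of 8 intestinal (12.5%), 2 of 5 liver (40%) and 1 of 5 salivary genes (20%) passed, against 8.31% of all genes. The liver genes were Apoa1 (-0.49 ± 0.11, adjusted p = 0.0240) and Apob (-0.33 ± 0.08, 0.0348). The adipocyte list averaged 4.78 to 5.53 on the AKR/J arrays and 4.53 to 5.08 on the DBA/2J arrays, with DBA/2J replicate 2 lowest and not replicate 3. Of its 6 genes 0 passed with the AKR/J cross higher and 1 with it lower (16.7%), against 8.91% and 8.31% of all genes. The list of spleen markers averaged 9.63 to 9.66 on the AKR/J arrays and 9.33 to 9.42 on the DBA/2J arrays, and 6 of its 10 genes passed with the AKR/J cross on top (60%), against 8.91% of all genes. Without DBA/2J replicate 3 this was 2 of 10 (20%), against 2.94%. How much pancreatic tissue came with each spleen is not recorded in the sources used here, and its part in these differences was not tested.

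**Figure D5:**
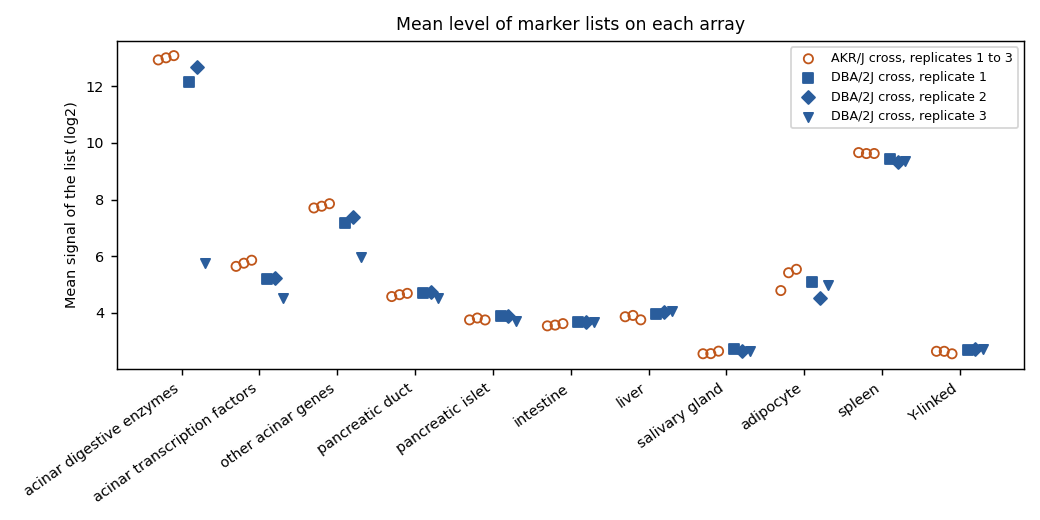
Mean signal (log2) of each marker list on each array, with open circles for the AKR/J arrays and filled symbols for the DBA/2J arrays. The acinar enzymes average 12.9 to 13.1 on the AKR/J arrays and 12.2, 12.7 and 5.76 on the DBA/2J arrays, whereas the duct, islet, intestine, liver and salivary lists lie below 5 on all 6.

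Across the rest of the array, the genes with the pattern most like the enzymes were sought by the root mean square distance, over the 6 arrays, between a gene's deviations from its own mean and the median deviations of the 17 enzymes. The deviations were not scaled, so the distance depends on the size of the changes as well as on the order of arrays. The acinar set itself and genes with clone or predicted names were passed over. The nearest of 16297 genes was Dmbt1, which encodes a secreted scavenger receptor of epithelia, at a distance of 0.47. It stood at 12.13, 12.36 and 12.23 on the AKR/J arrays, and at 10.55, 11.35 and 3.16 on the DBA/2J arrays. Next came Reg1, a lectin secreted by acinar cells, at 0.48, with 13.44, 13.52 and 13.55 on the AKR/J arrays, and 12.13, 12.64 and 4.16 on the DBA/2J arrays. After these 2 genes came a step to the trefoil factor Tff2 (1.32), vitronectin, Vtn (1.61), the lectin Reg3d (1.61), the kallikrein Klk1b5 (1.63), the stress protein Nupr1 (1.65), the amylase Amy1 (1.72), Tmed11 (1.94) and the zinc transporter Slc39a5 (2.10). Klk1b5 did not have the enzymes' order, with 6.34, 6.35 and 6.95 on the AKR/J arrays, and 5.99, 6.77 and 2.92 on the DBA/2J arrays. The median over all genes compared was 2.95. Dmbt1, Reg1, Tff2, Nupr1, Amy1 and Slc39a5 were already on the second acinar list above, so they are no independent finds. Amylase genes are near-identical, so the probe set named Amy1 may also bind the pancreatic amylases.

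Reg3d passed with all arrays, at 9.06, 9.05 and 8.83 on the AKR/J arrays and 6.08, 6.82 and 3.59 on the DBA/2J arrays (3.48 ± 0.69, adjusted p = 0.0191 in limma over genes). It stood further from the AKR/J arrays on DBA/2J replicates 1 and 2 than any of the 32 acinar genes did. Without replicate 3 its difference was 2.53 ± 0.20 (adjusted p = 0.00288). By the same measure the 32 genes lay at 0.05 (Cel) to 3.04 (Gata4), with Ptf1a, at 1.98, the nearest of the transcription factors. The 17 enzymes made the median profile themselves, so their distances are no independent measure of likeness. Prss3 lay at 2.32 although it had the enzymes' order.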

How the data were processed

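Per the labels' protocols, Trizol was used for extraction and biotin for labelling, with 1 Affymetrix array per sample. The deposited values were taken as log2 signals from their range, with array medians within 0.1 of one another. RMA and MAS5 are named in the submitters' processing notes with no role, and the sources used here do not say how the authors scaled the arrays.

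Of 45101 deposited probe sets, 64 controls were left out. Groups and replicate numbers came from the sample titles. Each of the 45037 remaining probe sets was tested with limma 3.58.1 (lmFit, eBayes) in R 4.3.3 on all 6 arrays without covariates, with Benjamini-Hochberg adjustment over all of them and a threshold of 0.05. Gene counts used the brightest probe set with 1 symbol for each of 18193 genes, adjusted over genes. Differences of acinar probe sets carry the adjustment over probe sets. With 3 arrays a group, their number limits the precision. The fit was tested on simulated data.

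The members, gene lists and tests were chosen with earlier results of these data known. All members could be named, with up to 4 genes per other list by adjusted p, defining markers of those lists, and the 10 genes nearest the enzyme pattern. The alternatives were median centring, quantile normalization, leaving out dim probe sets (mean level below the 40th percentile), a trended robust variance model, array weights, a replicate block, each array left out in turn, and averaging a gene's probe sets.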

Additional observations from a re-analysis of the deposited data

How the results depend on the processing

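Among the 38 acinar probe sets whose difference is given, 0 changed direction under the alternatives run for them. Over all those fits, 418 values stayed on their side of the threshold, 31 lost a call and 6 gained one. Acinar genes higher in the AKR/J cross numbered 4 as reported, 1 with a trended robust variance model, 2 when a gene's probe sets were averaged, and 0 to 12 with 1 array left out. Acinar probe sets higher in that cross numbered 5 as reported, 3 after quantile normalization, 1 with the trended robust model and 0 to 8 with 1 array left out. Those higher in the DBA/2J cross numbered 1 as reported and 0 to 1 with 1 array left out. Over all probe sets, 4688 passed as reported and 1001 to 4793 with 1 array left out. The cause of these shifts was not tested.

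The median distance of the AKR/J mean above DBA/2J replicate 2 in the enzymes was 0.17 after quantile normalization, against 0.23. Averaging a gene's probe sets gave 7.97 above DBA/2J replicate 3 in the enzymes, and 0.34, 0.22 and 0.59 above DBA/2J replicates 1, 2 and 3 in the transcription factors. Leaving out dim probe sets gave 1.59 above DBA/2J replicate 3 in the factors, which then number fewer.

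Same-numbered arrays deviated from their group means with correlations over probe sets of 0.20, 0.11 and 0.05. Differently numbered arrays gave -0.16 to 0.06, and each AKR/J array correlated most with the DBA/2J array of its own number. The main fit did not pair the samples by number, and a replicate block was run as an alternative. With the replicate block, 4658 probe sets passed in all, with 5 acinar probe sets higher and 1 lower in the AKR/J cross, and 3 acinar genes. A change of pseudocount was planned for linear values and was not run on these log2 values. No detection calls or signal over background were used, so low signals have no floor of their own.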
